A study of Homo sapiens with 6 samples.

Results

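Nucleolar and rRNA processing genes were examined for MYC binding in ONS76 cells, a medulloblastoma line of human origin, for which the labels of all samples give the engineered genotype Inducible SOX2. The 8 genes were NCL, NPM1, NOLC1, FBL, NOP56, NOP58, RRS1 and POLR1B, and a MYC peak was assigned to a gene when its summit, the position with the strongest signal, lay within 5 kb of the gene's start in hg19. By this rule 24 peaks were found, 8 in each of the 3 MYC libraries, of 59006 peaks in all. The MYC libraries came from chromatin immunoprecipitated with the MYC antibody Y69 and sequenced (ChIP-seq), and the labels list 3 further libraries made with normal IgG, for which no peak list was analysed here. The MYC and IgG groups share this label, and the study states that SOX2 was not elevated for this experiment. Per the methods, immunoprecipitations from the same batch of chromatin were combined into a sample, but no source used here ties the replicates to separate cultures, so their spread may be technical. Expression was not measured in this series, and the tumor type of the line could not be checked against marker genes.

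Ribosome production begins in the nucleolus, where RNA polymerase I transcribes the rRNA precursor. The precursor is then modified and cut with the help of small nucleolar RNAs (snoRNAs) and their partner proteins, and assembled with ribosomal proteins. MYC is a transcription factor that binds DNA together with MAX, prefers the E-box sequence CACGTG and close variants of it, and is known for promoting the transcription of many genes of ribosome production. The question was where MYC sat at the genes for this machinery, and how strongly.

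The sequence around the start was available for 5 of the 8 genes in the RefSeq promoter table used here (GRCh38.p14), with 1 start each for FBL, NCL and NOP56 and more than 1 for NPM1 and POLR1B. The 3 stretches below are shown because MYC recognises short letter patterns and because they differ in them. FBL holds the canonical E-box, NPM1 holds 4 copies of a variant, and NCL, the gene with the strongest peak, holds none of the patterns searched. Each runs for 280 bases, from 250 bases before the RefSeq start through the first 30 bases from the start on. Capitals mark CACGTG, and CACGCG or CATGTG on either strand.

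FBL (chr19:39846350-39846629, minus strand): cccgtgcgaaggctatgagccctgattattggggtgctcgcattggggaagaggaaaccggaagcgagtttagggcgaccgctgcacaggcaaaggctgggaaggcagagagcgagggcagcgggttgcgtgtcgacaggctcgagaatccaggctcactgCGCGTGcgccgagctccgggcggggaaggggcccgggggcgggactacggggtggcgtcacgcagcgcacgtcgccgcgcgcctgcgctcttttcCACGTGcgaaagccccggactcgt
NPM1 (chr5:171387599-171387878, plus strand): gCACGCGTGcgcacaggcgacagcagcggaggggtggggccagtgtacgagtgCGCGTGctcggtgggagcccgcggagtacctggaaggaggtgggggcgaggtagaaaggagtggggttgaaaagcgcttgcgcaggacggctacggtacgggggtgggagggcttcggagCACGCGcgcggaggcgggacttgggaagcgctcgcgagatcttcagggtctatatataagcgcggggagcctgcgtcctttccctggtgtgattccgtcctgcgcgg
NCL (chr2:231464455-231464734, minus strand): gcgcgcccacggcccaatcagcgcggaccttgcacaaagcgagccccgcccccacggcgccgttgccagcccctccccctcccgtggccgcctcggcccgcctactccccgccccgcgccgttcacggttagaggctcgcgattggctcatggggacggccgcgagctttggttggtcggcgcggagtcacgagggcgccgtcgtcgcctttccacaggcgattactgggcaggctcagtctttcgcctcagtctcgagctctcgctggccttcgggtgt

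In FBL the E-box CACGTG began 6 bases after the start base, and CACGCG was found on the opposite strand, as CGCGTG, from 89 bases before it. In NPM1 the 4 copies of CACGCG, read on both strands, began 249, 247, 197 and 77 bases before the start at 171387849, and the first 2 of them overlapped. POLR1B had CATGTG, read on the opposite strand as CACATG, 27 bases after its start at 112542465. The full windows of the table, 300 bases long, held CACGTG in 7.26% of 35116 promoters, CACGCG in 11.4% and CATGTG in 11.1%. Any of the 3 patterns was found in 27.2% of all promoters, and in 3 of the 7 windows of the 5 genes, 1 window each of FBL, NPM1 and POLR1B. These windows were described as reference sequence only, since they are of another build than the peaks and most summits lay outside them. The GC content was 70.3% for NCL, 67.7% for FBL, 76.3% for NOP56, 66.0% and 47.7% for the NPM1 windows at 171387849 and 171387116, and 63.7% for both windows of POLR1B, against a median of 58.7% over all promoters.

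All 8 genes had a MYC peak in each replicate, and none had more than 1 within 5 kb in any replicate. At each gene the 3 peaks overlapped and formed 1 place. Of all 27801 places in the lists, 45.0% had a peak in all 3 replicates and 62.4% in at least 2, which is the study's requirement for a MYC peak. The farthest of the 24 summits lay 876 bp from its gene start, and the nearest summit outside the window lay 11532 bp from a start, so the limit of 5 kb did not decide any assignment. The genes were chosen with earlier results of these data known, and how often gene starts in general had a peak could not be counted, because gene starts of hg19 other than these 8 were not used here.

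The peaks were also strong within their lists. Fold enrichment is the ratio of fragments at the summit to the local background, with 1 added to both, as the authors' peak caller gave it. Its median over the 8 genes was 16.5 in replicate 1, 16.5 in replicate 2 and 15.6 in replicate 3, against 4.15, 4.49 and 4.78 over all peaks. The ratio of both medians was 3.64 ± 0.357 (SD, n = 3). All peaks include those at places without a peak in all 3 replicates, and peaks near other gene starts could not be set apart as a baseline. The weakest of the 24 peaks, that of NOLC1 in replicate 1, was still above 96.3% of the peaks in its list. All 8 genes were in the top 10% of fold enrichment in each replicate, as were 4.53% of all places. That share is 1260 places, and only the 12499 places with a peak in all 3 replicates could qualify. The −log10 q-value ranged from 68.4 to 474 over the 24 peaks.

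**Figure D1:**
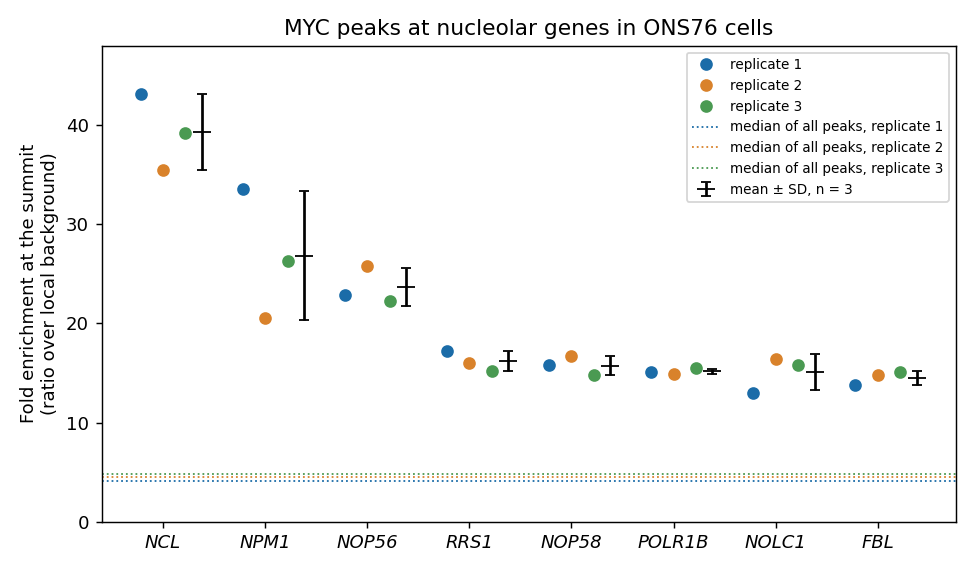
Fold enrichment at the summit (vertical axis, ratio over local background) of the MYC peak at each of the 8 genes in replicates 1, 2 and 3 (points), with the mean ± SD (n = 3) in black and the median of all peaks of each replicate as dotted lines. NCL, NPM1 and NOP56 lie above 20 in each replicate, and the other 5 genes lie between 12.98 and 17.2, all above the dotted lines at 4.15, 4.49 and 4.78.

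The number of fragments behind each fold enrichment, and the local background in fragments, were worked back from the fold enrichment and the p-value of each peak. The lowest background in each list stands for the genome-wide level of that replicate, and it was 7.79, 5.84 and 4.76 fragments in replicates 1, 2 and 3. This level was highest in replicate 1. It was taken to follow depth, which was not measured since read totals are unknown. Fragment numbers are therefore read within a replicate.

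Among the abundant nucleolar phosphoproteins, NCL was the most strongly bound. NCL encodes nucleolin, which associates with rRNA precursors and nucleolar chromatin. Its fold enrichment was 43.1, 35.5 and 39.3 in replicates 1, 2 and 3 (mean 39.3 ± 3.81, SD, n = 3), which placed it at ranks 10, 11 and 11 of 24899, 16809 and 17298 peaks. The place covered chr2:232328239-232329854 (hg19). NCL was higher than each of the other 7 genes in each replicate. The summit held 378 fragments in replicate 1 (95% exact Poisson interval 340.9 to 418.1), 242 in replicate 2 (212.5 to 274.5) and 225 in replicate 3 (196.6 to 256.4), and these intervals cover counting error only.

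NPM1 encodes nucleophosmin, a histone and ribosome assembly chaperone that shuttles between nucleolus and cytoplasm. Fold enrichment at NPM1 was 33.6, 20.6 and 26.3 (mean 26.8 ± 6.50, SD, n = 3), on 331, 181 and 162 fragments at chr5:170814349-170815972. It had the widest spread of the 8 genes, with a coefficient of variation (SD over mean) of 24.2%, which was above 84.6% of the 11547 places that had exactly 1 peak in each replicate (median 15.0%). Replicate 2 was the lowest, and its local background at NPM1 was 1.34 times the genome-wide level, against 1.14 and 1.09 in replicates 1 and 3. Measured over the genome-wide level instead, the enrichment was 42.5, 31.0 and 34.1, so replicate 2 was still the lowest.

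NOLC1 encodes a phosphoprotein that binds snoRNA particles on their way to the nucleolus. Its peak, at chr10:103911731-103912789, had a fold enrichment of 12.98, 16.4 and 15.8 (mean 15.1 ± 1.82, SD, n = 3). Replicate 1 gave the lowest value despite having the most fragments, 155 against 111 and 90. The local background there was 11.02 fragments in replicate 1, or 1.42 times the genome-wide level, while in replicates 2 and 3 it was at that level. Over the genome-wide level the 3 replicates were close, at 19.9, 19.0 and 18.9.

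The box C/D snoRNP is the particle that methylates rRNA at positions chosen by its snoRNA, and 3 of the genes encode its core proteins. NOP56 and NOP58 are paralogous scaffold proteins and FBL encodes fibrillarin, the methyltransferase. NOP56 was bound more strongly than the other 2 in each replicate. Its fold enrichment was 22.9, 25.8 and 22.2 (mean 23.7 ± 1.92, SD, n = 3), on 360, 254 and 196 fragments at chr20:2632202-2634039. For NOP58, at chr2:203130183-203131308, the values were 15.8, 16.7 and 14.8 (mean 15.7 ± 0.952, SD, n = 3) on 138, 113 and 84 fragments. FBL had 13.8, 14.7 and 15.1 (mean 14.5 ± 0.708, SD, n = 3) on 137, 103 and 90 fragments at chr19:40336715-40337314. NOP58 was above FBL in 2 of 3 replicates, and their ranges overlapped.

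The genes of NOP56, NOP58 and NCL also carry snoRNAs within their span in the GENCODE v44 annotation (hg38), on the same strand. There are 5 in NOP56 (SNORA51, SNORD110, SNORD56, SNORD57 and SNORD86), 4 in NOP58 (SNORD11, SNORD11B, SNORD70 and SNORD70B) and 3 in NCL (SNORA75, SNORD20 and SNORD82). The other 5 genes have none annotated. The hosts included the strongest peak, that of NCL, and one of the weaker ones, that of NOP58.

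RRS1 takes part in the assembly of the large ribosomal subunit and POLR1B encodes the second largest subunit of RNA polymerase I. RRS1 had a fold enrichment of 17.2, 16.1 and 15.2 (mean 16.2 ± 1.01, SD, n = 3) at chr8:67340936-67342124, on 207, 145 and 115 fragments. At POLR1B, chr2:113299450-113300524, it was 15.1, 14.9 and 15.5 (mean 15.2 ± 0.275, SD, n = 3), on 132, 101 and 88 fragments. POLR1B was the most even of the 8 genes in fold enrichment over the replicates, with a coefficient of variation of 1.82%. Counting error is wider than this spread, with a 95% exact Poisson interval of 110.4 to 156.5 for the 132 fragments. Over the genome-wide level POLR1B had a mean of 17.6 ± 0.813 and NOLC1 a smaller SD, 19.3 ± 0.547 (SD, n = 3). In fold enrichment RRS1 was above POLR1B in replicates 1 and 2 and below it in replicate 3.

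Ordered by mean fold enrichment the genes were NCL, NPM1, NOP56, RRS1, NOP58, POLR1B, NOLC1 and FBL. Of the 28 pairs of genes, 19 had the same order in 3 of 3 replicates and 18 had ranges that did not overlap. These 18 included all 15 pairs between the first 3 genes and the other 5. Among the other 5, 2 of 10 pairs kept their order in 3 of 3 replicates, RRS1 above FBL and POLR1B above FBL, and the latter pair turned around in 3 of 3 replicates when fragments were set over the genome-wide level. NPM1 was above NOP56 in replicates 1 and 3 and below it in replicate 2. With 3 replicates the smallest p of an exact two-sided sign test is 0.25, so the order is given as a description.

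**Figure D2:**
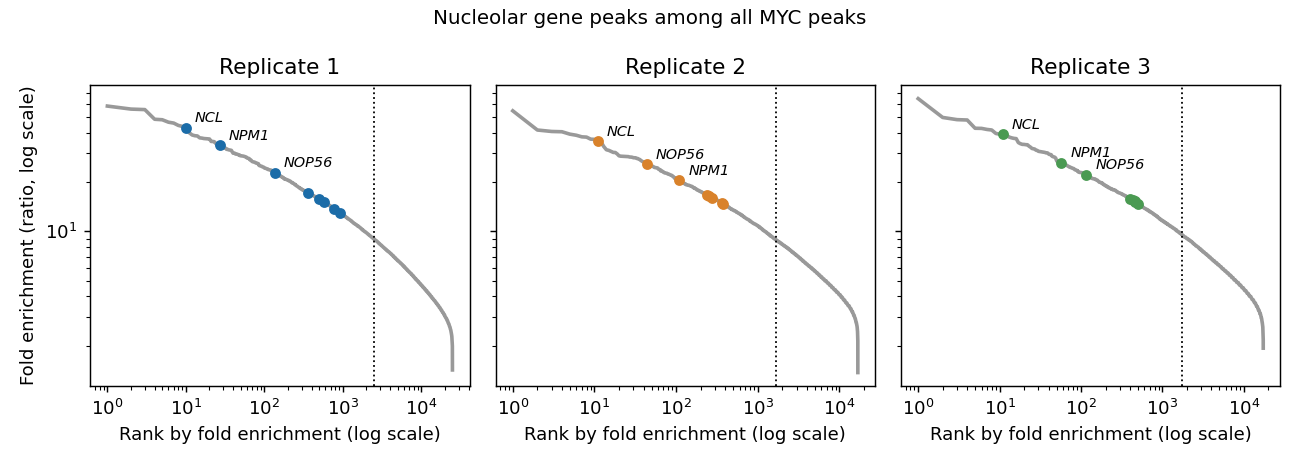
Fold enrichment (vertical axis, ratio, log scale) against rank (horizontal axis, log scale) for all peaks of each replicate (gray line), with the 8 genes as points and the rank that bounds the top 10% as a dotted line. All 8 points lie left of the dotted line in each replicate, with NCL at ranks 10, 11 and 11.

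With the hg19 starts used, binding was not centered on the gene start at most genes. With distances counted in the direction of transcription, the summit lay downstream of the start in 3 of 3 replicates at 7 genes and upstream in 3 of 3 at 1, NOP56. The summit of NPM1 lay 865, 876 and 861 bp downstream, that of POLR1B 689, 655 and 662 bp and that of NCL 612, 637 and 627 bp. At NOLC1 it lay 410, 396 and 399 bp downstream, and at NOP58 307, 322 and 356 bp. Only FBL, at 83, 57 and 56 bp, and RRS1, at 24, 14 and 22 bp, had the summit within 100 bp of the start in each replicate. The summit of NOP56 lay 715, 715 and 729 bp upstream.

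These positions differed little between replicates. The 3 summits of a gene spanned from 10 bp at RRS1 to 49 bp at NOP58, against a median of 58 bp over the 11547 places with exactly 1 peak in each replicate. Those places were of any strength, while each peak of the 8 genes was above at least 96.3% of its list in fold enrichment. Places of similar strength were not compared. The summit ranges of the 8 genes lay apart from each other, the closest being those of NCL and POLR1B. The start used in hg19 was not checked against an annotation. If it lies some bases from the true one, this matters most for the side on which the RRS1 and FBL summits lie. NPM1 and POLR1B have more than 1 RefSeq start in hg38. These lie at 171387116 and 171387849 in NPM1 and at 112542036 and 112542465 in POLR1B. The summit distances of both genes therefore depend strongly on the start used.

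In the MANE Select transcripts of GENCODE v44 (hg38), the first exon is 149 bp long in NCL, 158 bp in NPM1, 224 bp in NOP58, 142 bp in NOLC1 and 207 bp in POLR1B. The summit distances of these 5 genes were longer than the first exon in each replicate, and shorter than first exon and first intron together, since the first intron is 1019 bp long in NCL, 2044 bp in NPM1, 9126 bp in NOP58, 4488 bp in NOLC1 and 4340 bp in POLR1B. At FBL the distance was shorter than the first exon of 89 bp, and RRS1 has a single exon. Lengths and distances come from different builds and were set side by side without moving a position. The MANE Select start (hg38) is 171387849 in NPM1 and 112542465 in POLR1B, and each gene has another RefSeq start upstream of it. Whether the hg19 start used matches the MANE Select start was not checked. The distances therefore do not settle whether a summit lies in an exon or an intron, above all at NPM1 and POLR1B.

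Peaks were broad and reached across the start. Of the 24 peaks 23 covered the hg19 start used, and the exception was POLR1B in replicate 2, whose peak ran from 258 to 993 bp downstream. POLR1B has more than 1 RefSeq start, so this exception depends on the start used. In replicates 1 and 3 the POLR1B peak began just 42 and 23 bp upstream of the start. NOP56 had the widest peaks, 1724 ± 99.0 bp (SD, n = 3), and they ran from at least 942 bp upstream to at least 679 bp downstream in each replicate. NCL followed with 1565 ± 56.0 bp and NPM1 with 1490 ± 117 bp. FBL had the narrowest, 509.7 ± 86.8 bp, while the median over all peaks was 499, 438 and 437 bp in the 3 lists. The median width over the 8 genes was 1158, 874 and 1073 bp. Width and fold enrichment both depend on the number of fragments, so they are not independent.

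**Figure D3:**
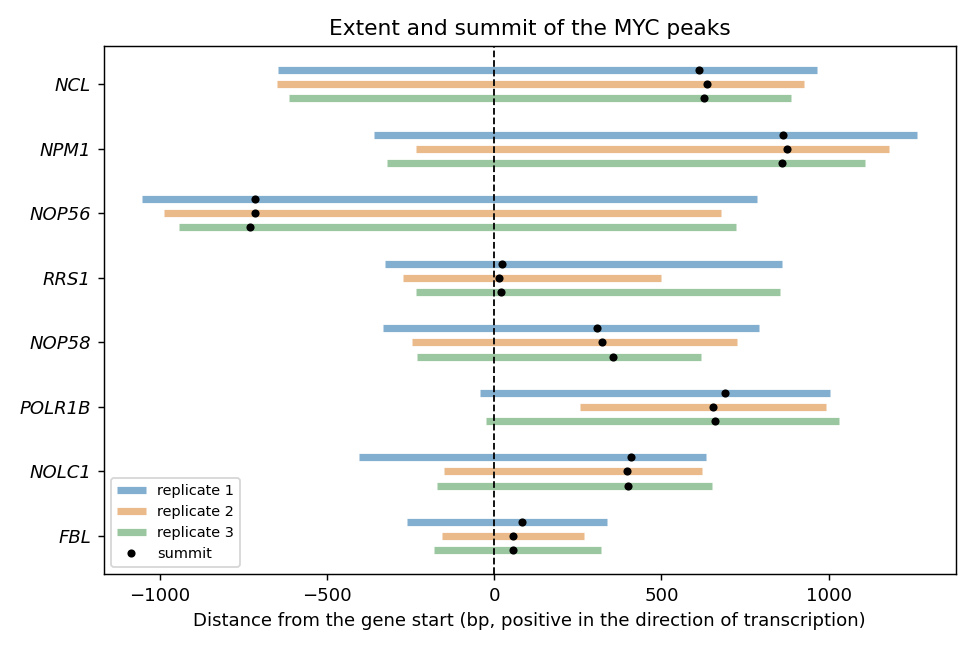
Extent of the MYC peak (bars) and its summit (black points) at each gene in replicates 1, 2 and 3, as distance from the gene start in bp (horizontal axis, positive in the direction of transcription, dashed line at 0). Summits lie right of the line at 7 genes and left of it at NOP56, and the POLR1B bar of replicate 2 starts 258 bp right of the line.

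Some peaks could also belong to the start of a neighbouring gene. In GENCODE v44 a divergent noncoding gene, RRS1-DT, starts 37 bp upstream of RRS1 on the opposite strand, which is closer to the RRS1 start than the width of the peak. Downstream of the RRS1 start, on the same strand, lie the starts of the protein-coding genes ENSG00000285655 at 1171 bp, ENSG00000285791 at 3472 bp and ADHFE1 at 3478 bp, and that of the noncoding ENSG00000287127 lies at 3356 bp on the opposite strand. A microRNA gene, MIR1292, starts 145 bp downstream of the NOP56 start, and MIR3912 starts 1089 bp upstream of that of NPM1 on the opposite strand. For NCL, FBL, NOP58, NOLC1 and POLR1B no start other than that of a snoRNA was annotated within 5 kb. The peak lists do not tell which start a peak belongs to.

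The surroundings of the genes differed in the number of other MYC peaks. NPM1 stood most alone, with 0, 0 and 1 other summits within 100 kb in replicates 1, 2 and 3. NOLC1 had the most, 9, 7 and 6, followed by POLR1B with 6, 3 and 4. The nearest other summit lay about as far from FBL (12475, 12476 and 12456 bp from the start) as from NOP56 (11620, 11532 and 11667 bp). At RRS1 it lay 93471, 92832 and 93494 bp away.

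The level of the local background differed between the genes, and it is the denominator of fold enrichment. For each peak MACS2 takes whichever is larger, the genome-wide level or the background signal nearby, which is that of a control library where one is given. At NCL, NOP58 and POLR1B it was at the genome-wide level in 3 of 3 replicates. Over all peaks, 28.9%, 40.4% and 40.0% were at that level in replicates 1, 2 and 3. These genes all lie on chromosome 2, where the median over all peaks was also at that level in each replicate. The local background was above the genome-wide level in 3 of 3 at NOP56, RRS1, NPM1 and FBL. NOP56 had the highest relative background, 1.90, 1.52 and 1.65, in units of the genome-wide level (mean 1.69 ± 0.192, SD, n = 3). The median over all peaks on chromosome 20 was 2.07, 1.90 and 1.89, so the background at NOP56 was below the median of its own chromosome in each replicate. RRS1, on chromosome 8, had 1.42, 1.39 and 1.39, against 1.36, 1.22 and 1.23 for the peaks of that chromosome. FBL had 1.16, 1.04 and 1.05, below the medians of chromosome 19, 1.25, 1.11 and 1.12. NPM1 had 1.14, 1.34 and 1.09, against 1.22, 1.08 and 1.09 on chromosome 5.

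Because of this denominator the order of the strongest genes depended on the scale. In fragments over the genome-wide level NOP56 reached 46.2, 43.5 and 41.2 (mean 43.6 ± 2.52, SD, n = 3), against 48.5, 41.4 and 47.3 for NCL (mean 45.8 ± 3.80). On this scale NOP56 was above NPM1 in each replicate and above NCL in replicate 2. RRS1, at 26.6, 24.8 and 24.2, was above NOP58, NOLC1, FBL and POLR1B in each replicate. FBL, at 17.6, 17.6 and 18.9, was above POLR1B, at 16.95, 17.3 and 18.5, in each replicate, the opposite of their order in fold enrichment.

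**Figure D4:**
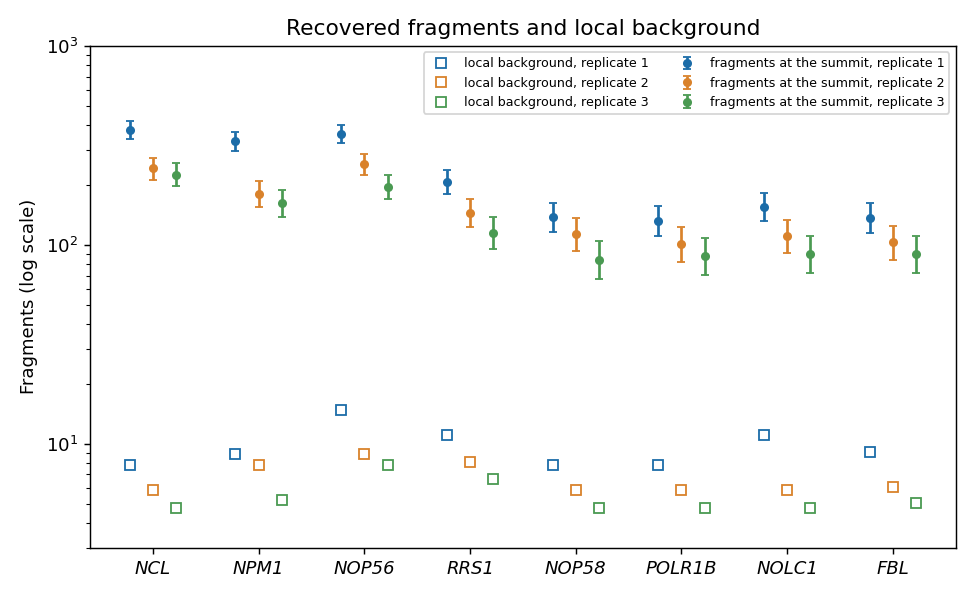
Fragments at the summit (filled points, with 95% exact Poisson intervals) and local background (open squares) at each gene in replicates 1, 2 and 3, both in fragments on a log axis. The background square of NOP56 is the highest of the 8 genes in each replicate, while its fragment number, 360, 254 and 196, is close to that of NCL, 378, 242 and 225.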

How the data were processed

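Peak lists of 3 MYC libraries of ONS76 cells were used. Per the study's methods, the authors mapped reads to hg19 using Bowtie2, and MACS2 called peaks library by library with a q-value limit of 0.05. Which control MACS2 received, how duplicates were treated and which versions ran: not given in the sources used here. For every peak the deposited values are its position, a fold enrichment (a ratio over local background), a −log10 p-value, a −log10 q-value, and a score (that −log10 q-value times 10, cut to an integer). The authors did not scale the lists to each other.

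Peaks were assigned to genes by summit within 5 kb of 8 given hg19 starts, and overlapping peaks (1 bp) were merged into places. The 8 genes, which are also the named genes, and the motifs were chosen with earlier results of these data known. Fragments and local background were recovered from fold enrichment and p-value. A whole number of fragments gave back the −log10 p within 0.001 for 100% of peaks in each list, and the procedure was tested on simulated data. The genome-wide level of a list, its lowest background, was taken to follow depth, and read totals are unknown. Strand, exons, snoRNAs and neighbours came from GENCODE v44 and promoters from RefSeq, both hg38, and no position was carried between builds. No test across groups was possible. Other nucleolar genes were listed for the same analysis, which was not run because hg19 starts for them were not used here. Python 3.11.15, pandas 2.3.3 and scipy 1.17.1 were used.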

Additional observations from a re-analysis of the deposited data

How the results depend on the processing

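All 8 genes kept an overlapping peak in each replicate used with q-values of at most 0.01 and 0.001 and with summits within 1, 2 and 10 kb. These settings could not change the peaks, since the lowest −log10 q-value was 68.4. The farthest summit lay 876 bp from its start and the nearest other summit 11532 bp. All 8 also kept an overlapping peak with distances from any part of the peak, summits at most 200 bp apart, a reciprocal overlap of 50% and each replicate left out. The mean of the median fold enrichment, 16.2 in the report's values, rose to 18.7 with nothing added to fragments and background and to 22.3 over the genome-wide level, as the construction of both scales implies. Without 1 replicate it ranged from 16.1 to 16.5, and the median summit distance of 365 bp from 358.8 to 368.3 bp. The number of gene pairs in one order then ranged from 21 to 23. It could not fall below the 19 of all 3 replicates, because pairs in one order in 3 replicates are so in any 2. The number of gene pairs in one order was 18 with nothing added and 23 over the genome-wide level. Of the 5 genes with a promoter window, 2 held a motif in the 100 bases around the start, against 3 in the whole window. Of all 35116 promoters, 10.7% held a motif in the 100 bases and 27.2% in the whole window. No summary value changed its sign. Over the genome-wide level POLR1B and FBL changed places in 3 of 3 replicates, and NPM1, above NOP56 in 2 of 3 replicates, was above it in 0 of 3. No paired analysis was possible because the replicate numbers are shared only with the IgG libraries, for which no list was analysed here. Fragment numbers of 84 to 378 limit the precision of single values, and the lists hold called peaks only.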
